A study of Mus musculus with 31 samples.

Results

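The genes described here are 10 factors and surface proteins of the oligodendrocyte lineage: Olig1, Olig2, Sox10, Sox8, Nkx2-2, Nkx6-2, Myt1, Pdgfra, Cspg4 and Gpr17. They were taken as every probe set annotated to 1 of these symbols alone. That gave 16 probe sets of the 45101 on the array, and 10 of the 18193 genes that had a probe set. All 10 genes passed the filter on low signal, as did 12169 genes in all.

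The series holds 31 mouse Affymetrix arrays of total RNA, which the labels assign to 10 groups of CD4+ T cells. Induced Foxp3deltaEGFP+ cells kept in IL-2 (2 arrays) and induced regulatory T cells kept in IL-2 (2 arrays) are labelled as sorted reporter-positive cells held for 1 week at 100 units/ml. Induced Foxp3deltaEGFP+ cells (3 arrays) and induced regulatory T cells, or Treg (5 arrays), are labelled as sorted after 3 days with anti-CD3, anti-CD28 and TGF-beta, and failed induced Treg (3 arrays) as the reporter-negative cells of the same induced Treg cultures. Activated natural Treg (3 arrays) had the same antibodies with TGF-beta, and activated T cells (4 arrays) the antibodies without it. Native Foxp3deltaEGFP+ cells (2 arrays), native natural Treg (4 arrays) and native conventional T cells (3 arrays) had no activation. The Foxp3delta labels name Foxp3deltaEGFP mutant mice, males for the cells that were induced and heterozygous females for the native ones; the other labels name bicistronic Foxp3/EGFP mice, so by label every group carries an EGFP reporter at Foxp3. The sort was for reporter and CD4 in cells of spleen and lymph node. The labels give no age, and they number the samples without saying whether they came from separate animals or cultures, so a p-value here reflects only how these samples spread, and that spread may be technical.

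The T cell labels were not borne out by the defining markers on these arrays. Of 16 T cell genes, 14 were measured, 13 of them ranked on average in the lower 50% of their array, and 2 passed the filter, Cd3e and Zap70. The deposited intensity of Foxp3 lay between 7.619 and 17.02 over the 31 arrays. It was below the filter threshold on every array, and on 17 of 31 it exceeded that array's 95th percentile of 27 probe sets for bacterial genes that mouse RNA does not match (median 8.54 and 95th percentile 14.3 over all arrays), so it was not used as a check of the mutant label. Genes of neurons, astrocytes and myelin filled the top of every array instead: the median gene of those lists stood at percentiles 99.5, 97.9 and 97.8. How this came about was not tested, and the groups are therefore named below as labels ("arrays labelled activated T") and not as cells.

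Oligodendrocytes make the myelin of the central nervous system. They arise from precursor cells that carry the receptor for platelet-derived growth factor, PDGFRA, and the proteoglycan NG2, the product of Cspg4, and a population of such precursors remains in the adult brain and spinal cord. The transcription factors OLIG1, OLIG2, SOX10 and SOX8 are made in both precursors and myelinating cells, NKX2-2 and MYT1 act around the onset of differentiation, GPR17 marks cells on the way to differentiation, and NKX6-2 is used by maturing oligodendrocytes. Fibroblasts of the meninges also carry PDGFRA and pericytes carry NG2, so neither surface gene is particular to the lineage.

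To show the start regions of the members that differed between labels, the promoter of Olig2 and that of the first of the 3 start sites of Myt1 are given, 250 bases before to 50 after the annotated start, from RefSeq on GRCm38.p6. In both, capitals mark matches to ACAANG, a short core bound by SOX factors, and to TNAAGTG, a core bound by NK2 homeodomain factors such as NKX2-2, on either strand. The Olig2 promoter lies on the plus strand at chr16:91225300-91225599 and that of Myt1 on the plus strand at chr2:181763082-181763381.
Olig2: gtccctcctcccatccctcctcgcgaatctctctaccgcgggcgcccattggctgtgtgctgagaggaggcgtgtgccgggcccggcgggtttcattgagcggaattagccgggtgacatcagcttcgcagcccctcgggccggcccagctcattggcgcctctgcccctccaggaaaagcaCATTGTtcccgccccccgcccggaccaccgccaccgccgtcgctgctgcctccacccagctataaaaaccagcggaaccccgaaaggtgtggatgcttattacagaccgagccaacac
Myt1: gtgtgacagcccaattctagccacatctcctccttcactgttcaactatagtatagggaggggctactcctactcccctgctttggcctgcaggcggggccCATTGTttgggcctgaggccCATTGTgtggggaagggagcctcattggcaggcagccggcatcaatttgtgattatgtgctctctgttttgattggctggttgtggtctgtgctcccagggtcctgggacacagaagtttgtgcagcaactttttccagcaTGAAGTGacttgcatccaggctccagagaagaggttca
The Olig2 window held 1 match to ACAANG and none to TNAAGTG, and the Myt1 window held 2 matches to ACAANG and 1 to TNAAGTG; no matches overlapped. Of 32851 promoters of the same length, 41.2% held ACAANG and 11.5% held TNAAGTG, so a match is a common event and is given as a description only. Promoters of 7 members were in the table used. Across these, the E-box core CANNTG, the motif of OLIG proteins, had its most matches, 3, in the Nkx2-2 promoter, where 1 of them overlapped the single TNAAGTG match, and it had none in the Cspg4, Olig2 and first Myt1 windows (72.3% of all promoters held it). The core AAAGTTT, bound by MYT1, had 1 match in the Pdgfra promoter and 1 at the third start of Myt1, against 4.74% of all promoters.

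Every member gave signal on these arrays, but at unlike positions in the array's range. Values are deposited intensities, the brightness of a probe set on a linear scale, with the percentile of that probe set among all probe sets of its own array. Probe sets differ in how brightly they report the same amount of RNA, so these positions are not amounts of one gene against another. Olig1, which encodes a basic helix-loop-helix factor needed for myelin repair, had 2780 at its lowest, 6171 at the median and 11830 at its highest array, and stayed between percentiles 98.4 and 99.7. It stood among the genes of mature myelin in rank. Olig2, the paralog required for oligodendrocyte specification, had 209, 387 and 672 (lowest, median, highest; percentiles 76.1 to 88.6).

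Sox10, which encodes a high-mobility-group factor that drives myelin genes with MYRF, had 3 probe sets. The brightest had 575.5, 995 and 2630 (percentiles 89.6 to 95.8), the second had 105.7, 172.9 and 289.5, and the third had 37.54, 71.1 and 107.4. All 3 were above the negative controls on 31 of 31 arrays. Sox8, its close relative in the SOXE family, had 231.4, 424.6 and 673.3 (percentiles 81.8 to 87.2). Nkx2-2, a homeobox gene that acts on the timing of differentiation, had 196.3, 340.2 and 557.1 (percentiles 80.1 to 84.5), and Nkx6-2, whose loss in mice alters axon-glia contacts at the node, had 69.64, 135.2 and 191.7 (percentiles 65 to 73.2).

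Myt1, a zinc finger factor of the lineage, had the lowest rank of the members. Its brighter probe set had 21.26, 37.3 and 66.4 (percentiles 42.9 to 55.3) and exceeded the filter threshold of 39.82 on 10 of 31 arrays after normalisation. These 10 arrays carried several labels, so the gene did not pass through 1 group alone. Its second probe set had 5.735, 9.744 and 13.12 and exceeded the negative controls' 95th percentile on 1 of 31 arrays by the comparison made within each array, so it is described as not above background.

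Among the surface genes, Gpr17, a G protein-coupled receptor of differentiating precursors, had 199.5, 499.4 and 646 (percentiles 81.6 to 89.2). The brightest Pdgfra probe set had 159.6, 374.4 and 672.7 (percentiles 79.2 to 87.9), the second had 28.97, 58.72 and 90.92, and the third had 7.954, 12.89 and 17.57, above the controls' 95th percentile on 24 of 31 arrays and above the filter threshold on 0. The brighter Cspg4 probe set had 52.22, 94.92 and 129.9 and the second had 41.55, 96.15 and 131.7. Pdgfra and Cspg4 were thus measured on all arrays through 2 probe sets each.

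**Figure D1:**
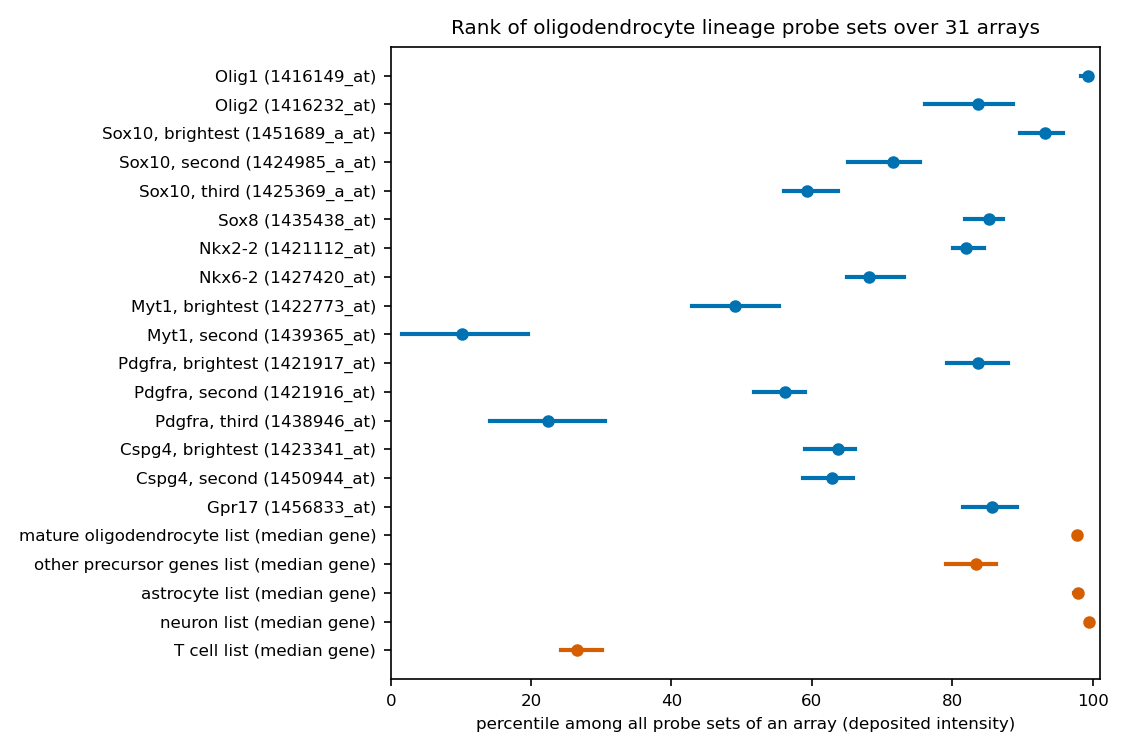
Percentile within the array (horizontal axis, 0 to 100) of the 16 member probe sets (blue, lowest to highest of 31 arrays, point at the median) and of the median gene of 5 marker lists (orange, lowest to highest array, point at the mean). Olig1 sits between percentiles 98.4 and 99.7, beside the mature list, while the brighter Myt1 probe set spans 42.9 to 55.3.

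The 10 members and the mature list were then set side by side, though several members are also made in myelinating cells. The median member stood at percentile 83.4 (81.7 to 85.4 over the arrays), with 2 of 10 members, Olig1 and Sox10, above the 90th on average. The median of 14 measured mature genes stood at percentile 97.8 (97.3 to 98.1), with 13 of 14 above the 90th; the exception was Myrf, the factor that switches on myelin genes, at percentile 89.6. Mbp, the gene of myelin basic protein, had a mean intensity of 19990 ± 3250 (SD, n = 31). A further list of 12 measured precursor genes had its median at percentile 83.4, with Bcan and Ptprz1, which encode matrix proteins shared with astrocytes, at percentiles 95.5 and 91.9 and Pcdh15 at 50.9. The list of committed precursors had its median at percentile 73.8.

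Other cell types that use some of these genes were looked at through their markers. Schwann cells of the peripheral nerve use Sox10; their list had its median at percentile 51.5 (8 of 10 genes measured), with Pmp22 at 98.8, Cdh19 at 75.7 and Foxd3 and Cdh1 below the filter; 4 of the 8 ranked under percentile 50. Fibroblast and meningeal genes had their median at percentile 83.9 and mural cell genes at 67.7. The part these cells have in the Sox10, Pdgfra and Cspg4 signals was not tested.

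For comparison between arrays, intensities were quantile-normalised, 16 was added and log2 taken, so that a difference understates the change of dim genes such as Myt1. The mean log2 of the 14 mature genes minus that of the 10 members was 3.07 at the lowest and 3.39 at the highest of 31 arrays (SD 0.08), and the label means ran from 3.20 in arrays labelled induced Foxp3delta to 3.30 in those labelled induced Treg in IL-2. Against Pdgfra, Cspg4 and Gpr17 alone it ran from 3.33 to 4.06. The size of this gap depends on probe brightness, so only its movement between arrays can be read. A mean over 10 little-correlated genes moves less than a mean over 3, so the widths of these ranges are not compared.

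Members differed in how much they varied. Sox10 had the widest spread of log2 values over the arrays (SD 0.38), then Olig2 (0.31), Pdgfra (0.26), Olig1 (0.24) and Gpr17 (0.24), against a median of 0.16 over all genes tested. Sox8 (0.13), Nkx2-2 (0.14), Nkx6-2 (0.15) and Cspg4 (0.15) varied less than the median gene. In linear values the coefficient of variation ran from 9.3% for Sox8 to 26.4% for Sox10. Label group accounted for 61.3% of the variance of Myt1, 59.3% of that of Olig1 and 57.5% of that of Olig2, and for 15.3% of that of Cspg4, where the median of all genes tested was 41.1%.

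The members did not move as a unit. Over the 45 pairs of members, Pearson r across the 31 arrays ran from -0.554 (Myt1 with Gpr17) to 0.37 (Sox10 with Pdgfra), with a median of -0.01 and 0 pairs over 0.5; within label groups the range was -0.417 to 0.438. The 91 pairs of mature genes also had a median of -0.01. These correlations are descriptions over arrays that share labels and array sets. Probe sets of 1 gene related little better: r was 0.60 between the brightest and the second of Sox10, but 0.10 and -0.04 for their pairs with the third, 0.02 to 0.21 for Pdgfra, -0.01 for Cspg4 and -0.12 for Myt1, whose second probe set was not above background.

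**Figure D2:**
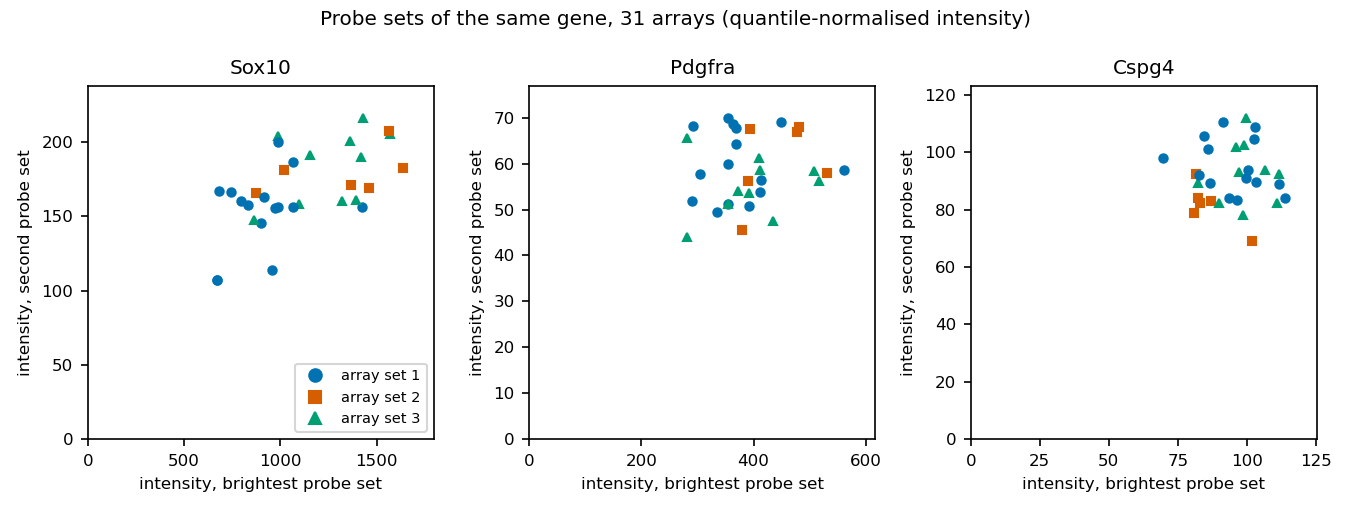
Quantile-normalised intensity of the brightest (horizontal axis) and the second probe set (vertical axis) of Sox10, Pdgfra and Cspg4, 1 point for each of 31 arrays, with colour and shape for array set. The Sox10 pair rises together (r = 0.60 on the log2 scale), while the Cspg4 pair shows no slope (r = -0.01).

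The arrays also fell into 3 sets by technical measures alone, the spiked control ratio, the median and the 99th percentile of intensity, with 15, 6 and 10 arrays. Array medians ran from 22.21 to 55.42 before normalisation, and correlations between arrays from 0.98 to 0.9975. Sets and labels overlapped in part: all 4 natural Treg, all 3 conventional T and all 4 IL-2 arrays lay in the first set, and all 3 activated natural Treg and 3 of 4 activated T arrays in the third. In a fit with label group, 0 of 10 members differed between sets by limma's adjusted p (2 at an unadjusted p under 0.05, Pdgfra and Myt1, with adjusted p of 0.07073 and 0.1014), where 28.4% of all genes did.

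Asked whether any of the 10 labels stood apart, limma's moderated F called 3 of 10 members at an adjusted p under 0.05, against 13.6% of all genes tested: Myt1 (adjusted p = 0.03794), Olig1 (0.03874) and Olig2 (0.04397). Sox10 had 0.06798, Nkx6-2 0.1116, Gpr17 0.1878 and Pdgfra 0.3698, and Nkx2-2, Sox8 and Cspg4 had 0.8178 to 0.9299. With array set as a block the count was 0 of 10, with a smallest adjusted p of 0.2137. Leaving out 1 array at a time changed the count. It was 0 without activated natural Treg 1, conventional T 1 or 2, induced Treg 3 or 4, or natural Treg 3. The share of all genes called under each omission is not given, so this loss is not read as particular to the members. Omissions that leave 1 array under a label are not counted here. Over the 10 pairs of labels, 100 tests on members gave 3 calls, 23 unadjusted p under 0.05 and log2 differences from -0.70 to 0.60. Over all genes and the same pairs, 2.64% of tests were calls and 13.9% had an unadjusted p under 0.05, so the members' share of calls was near that of all genes.

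The activated T label was set against the conventional T label, the comparison of antibody-stimulated with unstimulated conventional cells. Olig1 was lower in the activated label: normalised intensity was 5513, 5336, 4990 and 5583 in arrays labelled activated T, against 7806, 7264 and 6816 in those labelled conventional T. The 2 labels did not overlap, as for 22.7% of all genes. The log2 mean was 12.39 ± 0.07 in activated T (SD, n = 4) and 12.83 ± 0.10 in conventional T (n = 3), a difference of -0.44 (SE 0.13, 95% interval -0.72 to -0.17, limma adjusted p = 0.04629). It was the 1 member called, where 6.75% of all genes were, 3.38% higher and 3.38% lower. In bulk RNA, fewer cells of a type and less RNA per cell cannot be told apart.

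Olig2 and Sox10 were not called in the same pair. Olig2 had 385.9, 399.6, 475.6 and 397.5 in arrays labelled activated T, against 252.3, 325.1 and 358.9 in conventional T (log2 difference 0.40, SE 0.17, limma adjusted p = 0.1451). The brightest Sox10 probe set had 1365, 1417, 1364 and 1155 in activated T, against 682.5, 972 and 1064 in conventional T (0.56, SE 0.22, limma adjusted p = 0.116). The second probe set of Sox10 did not share this difference (0.14, SE 0.12), nor did the third (-0.08, SE 0.1). Neither Olig2 nor the brightest Sox10 probe set overlapped between the labels. The intervals were 0.05 to 0.75 for Olig2 and 0.11 to 1.01 for Sox10, and a p over the threshold does not show that levels were alike.

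Of the mature genes, 0 of 14 were called in this pair (2 at an unadjusted p under 0.05), with a median log2 difference of 0.016 against 0.042 for the members and 0.006 for all genes. Some genes of the wider lists were called in this pair, where 3.38% of all genes were called higher and 3.38% lower. Of 25 tested ligands, receptors and signalling genes 3 were higher, Pdgfb (0.58, SE 0.11, limma adjusted p = 0.004254), which encodes a ligand of PDGF receptors, Notch2 (0.35) and Notch1 (0.26), receptors that hold precursors undifferentiated. Of 12 other precursor genes 1 was lower, Lhfpl3 (-0.67, SE 0.19, adjusted p = 0.03612), and of 22 lineage regulators 1 was higher, Zfp536 (0.51, SE 0.14, adjusted p = 0.02777). Most of the 822 calls in this pair were lost with array set as a block. Whether the genes named here kept theirs is not given.

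The call on Olig1 rested on single arrays and on the scaling. It was lost without any of activated T arrays 2, 3 and 4 or conventional T arrays 1, 2 and 3, with log2 differences of -0.49 to -0.39 and adjusted p of 0.0461 to 0.1573 over the 7 omissions. All 3 conventional T arrays lay in the first array set and 0 of 4 activated T arrays did. Label and array set cannot be told apart in this pair. A fit with array set as a block takes the difference of the first set from other labels, so it cannot decide between them. In that fit the Olig1 difference was -0.39 (limma adjusted p = 0.4918), and 12 genes in all were called in place of 822. Scaled to array medians instead of quantiles the Olig1 difference was 0.30 (adjusted p = 0.2597), the opposite direction, where the median of all genes moved by 0.17. Summed T cell genes were 338.3 to 383 in activated T arrays and 312.9 to 329.9 in conventional T arrays, summed neuron genes 69600 to 73970 against 71880 to 75470, and summed mature genes 83730 to 85150 against 83200 to 87590; their part in the result was not tested. Of the 14 T cell genes summed, only 2 passed the filter on low signal.

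The activated natural Treg label was set against the native natural Treg label. Myt1 was higher in the activated label, with 49.31, 37.24 and 54.86 in arrays labelled activated natural Treg, against 34.32, 27.03, 33.89 and 31.47 in natural Treg. The labels did not overlap, as for 30% of all genes, though the second activated array lay close above the highest native one. The log2 mean was 5.97 ± 0.21 (SD, n = 3) in activated natural Treg and 5.57 ± 0.10 (n = 4) in natural Treg, a difference of 0.40 (SE 0.10, 95% interval 0.19 to 0.60, limma adjusted p = 0.01035). It was the 1 member called, where 16.7% of all genes were, 8.64% higher and 8.01% lower.

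The values of Myt1 were near the filter threshold in both labels, and the deposited intensities ran the other way: 29.09, 25.69 and 39.98 in activated natural Treg, against 35.89, 30.78, 40.36 and 30.66 in natural Treg, a log2 difference of -0.09 (limma adjusted p = 0.6937) where the median of all genes moved by -0.52. Without the third activated array the difference was 0.31 (adjusted p = 0.05759). All 3 activated arrays were in the third array set and all 4 native arrays in the first. Label and array set cannot be told apart in this pair. A fit with set as a block takes the set difference from other labels, so it cannot decide between them. In that fit the Myt1 difference was 0.40 (limma adjusted p = 0.1811). The actin 3'/5' ratio, a measure of RNA integrity, was 2.047, 2.078 and 2.129 in activated natural Treg arrays, against 1.841, 1.808, 1.733 and 1.789 in natural Treg arrays. The same ratio for GAPDH was not higher, at 0.9467, 0.904 and 1.024 against 1.025, 1.015, 1.024 and 1.031. The part of RNA integrity was not tested.

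Gpr17 was the other member without overlap in this pair, with 383.5, 429.4 and 334.4 in activated natural Treg arrays, against 448.8, 521, 515.6 and 502 in natural Treg arrays (log2 difference -0.37, SE 0.16, limma adjusted p = 0.1034). Mature genes gave 0 calls of 14 (1 at an unadjusted p under 0.05) and a median of 0.038, the members 0.073 and all genes 0.005. Of 25 signalling genes 6 were called, where 16.7% of all genes were, and these 6 were higher: Nrg1 (0.59), a ligand of ERBB receptors, Pdgfb (0.40), Notch1 (0.34), Notch2 (0.28), Igf1r (0.28) and Cxcr4 (0.25). Of 22 regulators 2 were lower, Nfia (-0.55) and Sox4 (-0.32). With array set as a block, 44 genes in all were called in this pair in place of 2027. Of the marker lists, the T cell gene Cd3e was called higher (0.59), and the neuron gene Cplx1 (-0.40) and the microglial gene C1qb (-0.30) lower. These single genes do not stand for their lists. Of 8 microglial genes tested, 6 had a difference above 0 (median 0.058), against the direction of C1qb. Of the 2 T cell genes tested 1 did, and of the 10 neuron genes 3 did. Summed T cell genes were 340.9 to 372.2 in activated natural Treg arrays, against 324.2 to 331.3 in natural Treg arrays, and summed neuron genes 68650 to 74990 against 75390 to 77970, both without overlap (median log2 difference of the neuron list -0.154). Of the 14 T cell genes summed, only 2 passed the filter on low signal, so that sum is mostly over genes of low signal. The part of these marker differences in the calls was not tested.

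The induced Treg IL-2 label was set against the induced Treg label, the comparison of a further week in IL-2 with the end of induction. Olig2 was lower in the IL-2 label, with 226.5 and 268.9 in arrays labelled induced Treg IL-2, against 369.2, 354.5, 457.4, 425.7 and 457.7 in induced Treg. Both IL-2 arrays lay below all 5 others; 24.4% of all genes did not overlap between these labels. The log2 mean was 8.04 ± 0.16 (SD, n = 2) in induced Treg IL-2 and 8.74 ± 0.17 (n = 5) in induced Treg, a difference of -0.70 (SE 0.19, 95% interval -1.08 to -0.31, limma adjusted p = 0.04793). It was the 1 member called, where 2.15% of all genes were, 1.14% lower.

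Sox10 was the member with the next difference in size. Its brightest probe set had 958.3 and 670 in induced Treg IL-2 arrays, against 898.5, 1427, 1021, 1635 and 1568 in induced Treg arrays, with overlap (-0.66, SE 0.24, limma adjusted p = 0.1532). Its second probe set had 114 and 107 in induced Treg IL-2 arrays, against 145.7, 156.6, 181.5, 182.4 and 205.9 in induced Treg arrays, without overlap, and was called when each probe set was tested on its own (-0.58, SE 0.14, limma adjusted p = 0.02497 over 21548 probe sets), an alternative chosen after seeing the data. The third Sox10 probe set differed by only -0.08 (SE 0.11). Nkx6-2 was at 162.3 and 144.1 in induced Treg IL-2, against 126.2, 113.7, 121.3, 136 and 115 in induced Treg (0.29, SE 0.10, limma adjusted p = 0.1396).

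The Olig2 call depended on single arrays: it was lost without either of the IL-2 arrays or without induced Treg array 3, 4 or 5, with log2 differences of -0.82 to -0.58 and adjusted p of 0.04036 to 0.4426 over the 7 omissions. Both IL-2 arrays and 2 of 5 induced Treg arrays lay in the first array set, and within that set the difference was -0.52 (limma adjusted p = 0.2665); with set as a block it was -0.63 (adjusted p = 0.1235). Mature genes gave 0 calls of 14 (1 at an unadjusted p under 0.05), with a median of -0.004, against -0.024 for the members and -0.002 for all genes. Of the wider lists, Sulf2, a sulfatase gene of the precursor list (-0.37), Pdgfb (-0.56) and Notch2 (-0.41) were lower.

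The same IL-2 step in the mutant labels gave 0 calls of 10 members by limma (4 at an unadjusted p under 0.05), where 0.304% of all genes were called and 39.3% did not overlap. The smallest p belonged to Myt1, with 30.83 and 29.32 in arrays labelled induced Foxp3delta IL-2, against 48.59, 44.75 and 38.56 in induced Foxp3delta (log2 difference -0.38, SE 0.12, limma adjusted p = 0.1178, no overlap). Olig1 had 5917 and 5849 in induced Foxp3delta IL-2, against 8481, 6541 and 8002 in induced Foxp3delta (-0.37, SE 0.16, limma adjusted p = 0.2413). Nkx6-2 had 124.7 and 111 in induced Foxp3delta IL-2, against 127.6, 145.1 and 185.2 in induced Foxp3delta (-0.32, SE 0.11, limma adjusted p = 0.1454).

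None of these 3 members overlapped between the labels. The members' median was -0.142, with 2 of 10 above 0, against -0.096 for the mature genes and -0.003 for all genes. This was the widest shift of members among the 10 pairs. Both IL-2 arrays lay in the first array set and 0 of 3 induced Foxp3delta arrays did. Label and array set therefore cannot be told apart in this pair. Sulf2 (-0.42, SE 0.09, limma adjusted p = 0.03839) and Pdgfb (-0.68, SE 0.13, adjusted p = 0.0212) were called lower here as well.

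Whether the IL-2 step differed between mutant and Foxp3/EGFP labels was tested directly as an interaction. It gave 0 calls of 10 members and 0 of 12169 genes by limma (2 members and 349 genes at an unadjusted p under 0.05). Nkx6-2 had the widest estimate, -0.61 (SE 0.15, 95% interval -0.92 to -0.30, limma adjusted p = 0.9999), from differences of -0.32 under the mutant label and 0.29 under the other. The mutant side of this interaction carries the same overlap of label and array set. The corresponding interaction of the activation labels gave 0 members and 927 genes at an unadjusted p under 0.05, and 0 calls.

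The remaining pairs gave no call on a member by limma. For induced Treg against activated T (0.0493% of all genes called, 0.0411% higher, and 1.92% without overlap), Olig1 had 6966, 7183, 7231, 7672 and 7893 in induced Treg arrays, against 5513, 5336, 4990 and 5583 in activated T arrays, a difference of 0.46 (SE 0.12, limma adjusted p = 0.1844) without overlap. This pair shares its activated T arrays with the comparison above. No other member had an unadjusted p under 0.05 here.

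For induced against failed induced Treg, which come from the same cultures by label (0% of all genes called, 2.53% without overlap), 3 members had an unadjusted p under 0.05. Sox10 was at 898.5, 1427, 1021, 1635 and 1568 in induced Treg, against 831.2, 742.3 and 1096 in failed induced Treg (0.53, SE 0.21, limma adjusted p = 0.9976). The other two had differences below 0, Gpr17 with -0.34 (SE 0.15) and Nkx6-2 with -0.21 (SE 0.09), both at a limma adjusted p of 0.9976. For induced Foxp3delta against induced Treg (0% called, 1.94% without overlap), 1 member had, Nkx6-2, at 127.6, 145.1 and 185.2 in induced Foxp3delta (0.27, SE 0.09, limma adjusted p = 1), the labels overlapping.

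For native Foxp3delta against native natural Treg (0.0493% called, 0.0329% lower, and 30.6% without overlap), Sox10 was at 1459 and 1394 in native Foxp3delta, against 915.3, 796.8, 1065 and 989.5 in natural Treg (0.60, SE 0.25, limma adjusted p = 0.2381), without overlap. The second probe set of Sox10 did not share this difference (-0.03, SE 0.14), nor did the third (-0.06, SE 0.11). Gpr17 was at 371.9 and 360.8, against 448.8, 521, 515.6 and 502 (-0.42, SE 0.18, limma adjusted p = 0.242), also without overlap. The first native Foxp3delta array lay in the second array set, the second in the third, and all 4 natural Treg arrays in the first. Label and array set therefore cannot be told apart in this pair. The actin 3'/5' ratio was 1.715 on the first native Foxp3delta array and 2.186 on the second, the highest of all 31 arrays. The GAPDH 3'/5' ratio was 0.9279 on the first and 1.014 on the second, where all arrays ran from 0.8542 to 1.046. The part of RNA integrity was not tested. The 2 native Foxp3delta arrays lay far apart for Olig1: 7081, on the first, was within the natural Treg values of 5806 to 7403, and 3707, on the second, was below them. A fit without either of them leaves 1 array under the label, which is then assumed to vary like the other groups. Calls from such fits are not given.

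For natural Treg against conventional T (0.00822% called, 6.72% without overlap), Olig2 was at 471.6, 296.4, 390.7 and 549.7 in natural Treg, against 252.3, 325.1 and 358.9 in conventional T (0.41, SE 0.17, limma adjusted p = 0.9998), with overlap. For induced against natural Treg (0.394% called, 6.11% without overlap), Myt1 was at 37.89, 39.42, 43.57, 47.99 and 45.34 in induced Treg, against 34.32, 27.03, 33.89 and 31.47 in natural Treg (0.30, SE 0.09, limma adjusted p = 0.1284), without overlap. Pdgfb was the signalling gene called in that pair (0.56, SE 0.09, limma adjusted p = 0.004116).

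**Figure D3:**
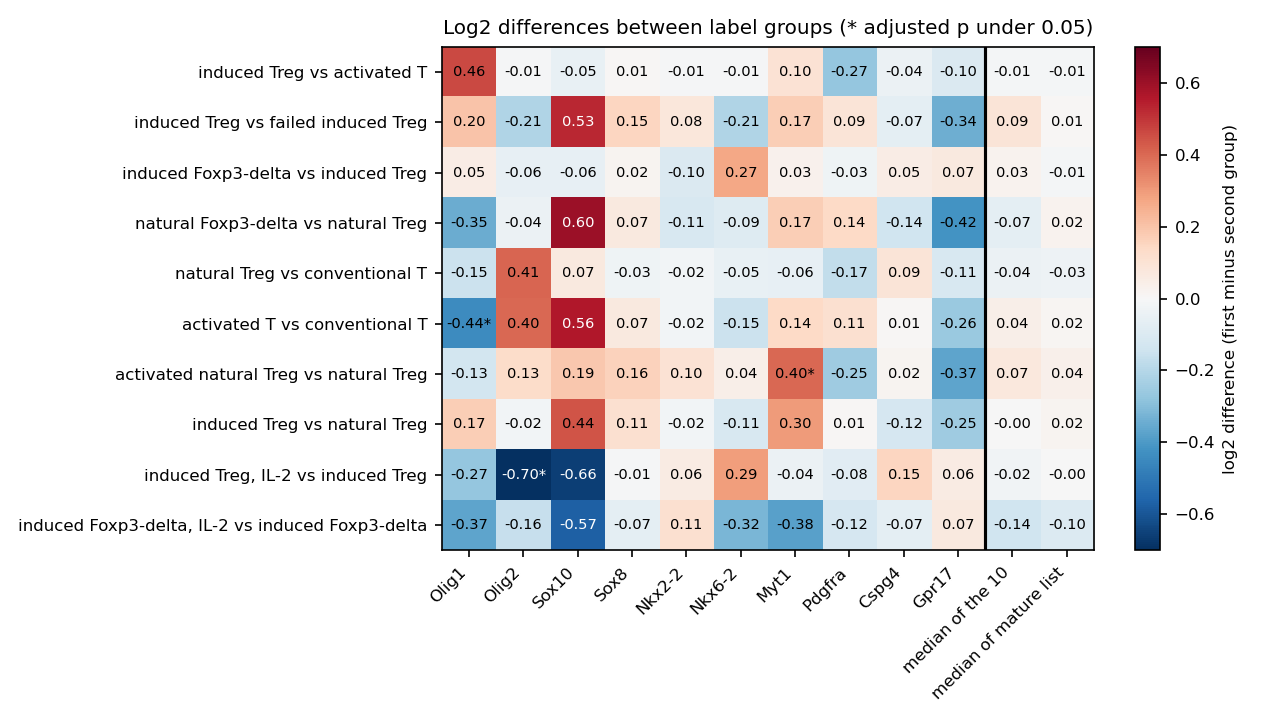
Log2 difference (first label minus second, colour and printed value) of each of the 10 members in the 10 label pairs, with the median of the members and of the mature list in the last columns. Stars mark the 3 calls at a limma adjusted p under 0.05: Olig1 (-0.44), Myt1 (0.40) and Olig2 (-0.70).

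Ordered by mean log2, the labels formed no common sequence across members. Olig1 ran from 12.90 in induced Foxp3delta to 12.33 in native Foxp3delta, Olig2 from 8.95 in failed induced Treg to 8.04 in induced Treg IL-2, Sox10 from 10.49 in native Foxp3delta to 9.68 in induced Treg IL-2, and Pdgfra from 8.93 in activated T to 8.39 in activated natural Treg. Of the 9 steps between neighbouring labels, at most 1 per member exceeded the larger of the 2 SDs. Sox8, Nkx2-2 and Cspg4 spanned only 0.20, 0.22 and 0.17 on the log2 scale between their highest and lowest label. Cspg4, for example, was at 6.88 in induced Treg IL-2 and 6.71 in native Foxp3delta.

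The genes most alike in pattern over the 31 arrays, by Pearson r of log2 values, were for Olig1 Spin2c (0.767), Ncmap (0.728) and Cep95 (0.726), and for Olig2 Rps4x (0.721), Drosha (0.702) and Spred1 (0.686). For Sox10 they were Bag1 (0.757), Kcmf1 (0.751) and Crabp1 (0.732), and for Gpr17 Setd6 (0.761), Wdr47 (0.736) and Cnnm1 (0.684). Myt1 had Ppp6r3 (0.71), Sox8 had Shh (0.643), Pdgfra had Id4 (0.626), Cspg4 had Gatm (0.671), Nkx2-2 had Pnp (0.605) and Nkx6-2 had Ablim3 (0.557) first. Each is the top of 12169 genes by choice, over arrays that share labels and array sets, so the values are descriptions. None of the genes named as alike belongs to the mature list.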

How the data were processed

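The 31 arrays were read from the authors' deposited table of intensity values, linear and never negative there; the authors' summary and normalisation of probe signals are steps not given in the sources used here. Total RNA was extracted with Trizol and spin columns and labelled with biotin, per the labels' protocols. Genes were named from the platform annotation: 34945 probe sets had 1 symbol, 932 several and 9211 none listed, with controls left out. Members and lists were chosen with earlier results of these data known.

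From the deposited intensity, arrays were quantile-normalised, 16 was added and log2 taken. A gene was represented by its probe set with the highest mean and was tested if it exceeded the median of the normalised table, 39.82, on at least 2 arrays. limma 3.58.1 in R 4.3.3 fitted 1 mean per label over all 31 arrays (lmFit, eBayes), with Benjamini-Hochberg adjustment over 12169 genes and calls under 0.05. The script was tested on simulated data. The number of arrays limits the precision. Named are all members, in each pair those called or the one with the smallest p, up to 4 called genes per wider list (more where every one is given), and the 3 genes most like a member. Members without a call but with a low p or no overlap were added after their values were seen. Array sets came from clustering 3 technical measures. Alternatives covered scaling, pseudocount, filter, probe set choice, blocks and left-out arrays.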

Additional observations from a re-analysis of the deposited data

Results flagged for a closer look

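In 30 combinations of a member with a label of 4 or 5 arrays, 2 had an array far from the rest of its label by Dixon's gap over range on the log2 scale; chance gives about 1 in 20. Olig2 stood at 475.6 on the third activated T array, with the other 3 between 385.9 and 399.6 (gap over range 0.83). Cspg4 stood at 110.9 on the fifth induced Treg array, with the other 4 between 82.94 and 87.16 (0.83). Activated T arrays 2 and 4, at 399.6 and 397.5 for Olig2, lay in the same array set as array 3, while the fifth induced Treg array was the 1 array of its label in the third set.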

How the results depend on the processing

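Counts of members called per pair changed with scaling. Calls over all genes changed too. As deposited, 7389 of 12469 genes were called for induced Treg against activated T, where the median moved by 0.45. For activated natural Treg against natural Treg 7134 were. Array medians gave, of 12168 genes, 1490 for native Foxp3delta against natural Treg and 3956 for activated T against conventional T. They gave 2772 for activated natural Treg against natural Treg and 2013 for induced against natural Treg. Shares for the other counts below are not given. The members' counts are therefore not read as a result about the members. Values as deposited gave 7 for induced Treg against activated T (0 after quantile scaling), 4 for activated natural Treg against natural Treg (1), 0 for induced Treg IL-2 against induced Treg (1) and 6 for the F test over labels (3); the median of all genes then moved by -0.36 in activated T against conventional T, -0.52 in activated natural Treg against natural Treg and -0.30 in induced Treg IL-2 against induced Treg. Array medians gave 1 for native Foxp3delta against natural Treg (0), 2 for activated T against conventional T (1), 2 for activated natural Treg against natural Treg (1), 3 for induced against natural Treg (0) and 3 for induced Treg IL-2 against induced Treg (1). Direction turned for 2 members: Olig1 in activated T against conventional T was 0.30 with array medians, and Myt1 in activated natural Treg against natural Treg was -0.09 as deposited; the cause was not tested.

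Array set as a block left 0 of the 3 calls and 0 in the F test. In the activated T and the activated natural Treg pair the labels compared share no array set. There the block cannot separate label from array set. Over all genes it left 12 of 822 calls in activated T against conventional T, 44 of 2027 in activated natural Treg against natural Treg and 206 of 262 in induced Treg IL-2 against induced Treg by count. No low-signal filter gave 0 for activated T against conventional T and 0 for the IL-2 pair, a pseudocount of 64 gave 0 for the IL-2 pair, and the mean of probe sets gave 0 for all 3 pairs. Using only the arrays of the 2 labels gave 2 for activated natural Treg against natural Treg and 0 for the IL-2 pair, and array set 1 alone gave 0 for the IL-2 pair. Over all genes, only the arrays of the 2 labels gave 1882 of 12169 for activated natural Treg against natural Treg. The mean of probe sets gave 1746 of 11400 there and 611 for activated T against conventional T, where no low-signal filter gave 761 of 18193. Shares for the IL-2 pair are not given, and these member counts are not read as a result about the members.

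Leaving out 1 array at a time gave 0 to 1 members in activated T against conventional T, where 97 to 1293 of all genes were called. It gave 0 to 1 in activated natural Treg against natural Treg, where 1134 to 1804 of all genes were called. Omitting an induced Treg array gave 0 to 1 in induced Treg IL-2 against induced Treg. The other pairs of labels with 3 or more arrays gave 0. Omissions that leave 1 array under a label are not counted here, nor is the range of the F test, which includes them. The Olig1 call was lost without any of activated T 2, 3 or 4 or conventional T 1, 2 or 3 (log2 -0.49 to -0.39).

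Over all labels together, same-numbered samples were no more alike than others: deviations of 114 same-numbered pairs had a median r of 0.002468 (-0.2946 to 0.4044, 12 over 0.1), against -0.001484 for 314 others. A median over all labels cannot exclude pairing within a single comparison. Induced and failed induced Treg, which come from the same cultures by label, were compared without pairing. With the replicate block, 0 members were called in activated T against conventional T (Olig1 -0.45, adjusted p = 0.06276), in the IL-2 pair (Olig2 -0.55, adjusted p = 0.1722) and in the F test.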
